A study of Mus musculus with 6 samples.

Results

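The kinetochore, spindle checkpoint and mitotic genes are 57 genes of the machinery that separates chromosomes, chosen by name. They comprise centromere and kinetochore proteins, checkpoint and chromosomal passenger genes, mitotic kinases and cyclins, mitotic kinesins, and spindle and cytokinesis proteins. Each was read from the probe set whose only annotated gene symbol was that gene. All 57 were measured, out of 19938 genes tested. They were followed in mouse embryonic stem (ES) cells after removal of Rad21, the subunit that closes the cohesin ring and is also called Scc1. The 3 tested cultures were Scc1 lox/lox ERT2-Cre cells, in which Cre can excise the gene, and the 3 controls were Scc1 wt/wt ERT2-Cre cells. ERT2-Cre, present in both, is a recombinase that moves into the nucleus once 4-hydroxytamoxifen (4-OHT) is added, and all 6 cultures were treated with it for 24 h. Its dose was 80 nM by the labels, and the design text gives this number in mM. All lines were female, of mixed C57BL/129 background, derived and kept in 2i, a pair of kinase inhibitors, with LIF in N2B27 medium on laminin. The 3 samples of a genotype are called biological replicates in the design text, which does not say how many lines or clones they came from. Samples without 4-OHT were not analysed here, so an earlier difference between the lines and the loss of Rad21 cannot be told apart.

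Cohesin and the genes described here meet in mitosis. Cohesin holds sister chromatids together until anaphase, so that the kinetochores of a chromosome pair can be pulled by opposite spindle poles. Kinetochores that lack microtubules keep the spindle checkpoint active, which holds back Cdc20 and with it the anaphase-promoting complex (APC/C), the ubiquitin ligase that frees separase to cleave the cohesin still on chromosomes at anaphase. Transcripts of many mitotic genes accumulate in G2 and M phase and are low in G1, and ES cells divide fast with a short G1. The levels below come from bulk RNA, in which fewer cells that hold a transcript and less of that transcript per cell cannot be told apart.

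Many mitotic promoters share a pair of short elements, the CHR (TTTGAA), a target of the DREAM and B-Myb complexes close to the transcription start, and CCAAT, the binding letters of NF-Y. The RefSeq promoter table of build GRCm38.p6, with 250 bases before and 50 after each start, held 49 of the 57 genes in 55 entries. TTTGAA lay on either strand within 50 bases of the start in 28 of these 55 promoters (50.9%), against 4.94% of all 32851 promoters of the same length. Anywhere in the 300 bases it was found in 58.2% of the members' promoters and 17.9% of all. CCAAT on either strand was found in 67.3% and 37.4%, and both motifs together in 47.3% and 6.95%. A match to TTTGAA may share end bases with a match to CCAAT, and no match says only that these letters are not in the window. The roles differed in this feature. All 6 kinases, cyclins and APC/C partners with an entry had TTTGAA near the start, as did 6 of 8 kinesins and 5 of 6 spindle and cytokinesis genes. So did 3 of 7 checkpoint genes, 3 of 7 outer kinetochore genes and 1 of 2 passenger genes. Among centromere and inner kinetochore genes it was 2 of 13, namely Cenpa and Cenpn. The 150 bases before the start are shown for the members of smallest p with an entry in each direction, with TTTGAA and CCAAT or their reverse complements in capitals. These are Ccnb2 (chr9:70421555-70421704, minus strand) and Kif22 (chr7:127042421-127042570, minus strand), whose fitted change was below 0, and Cdc20 (chr4:118437344-118437493, minus strand) and Cenpm (chr15:82244337-82244486, minus strand), whose fitted change was above 0.
Ccnb2: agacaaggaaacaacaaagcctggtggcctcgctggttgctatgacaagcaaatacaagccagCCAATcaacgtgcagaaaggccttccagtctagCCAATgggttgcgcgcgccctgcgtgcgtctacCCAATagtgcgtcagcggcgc
Kif22: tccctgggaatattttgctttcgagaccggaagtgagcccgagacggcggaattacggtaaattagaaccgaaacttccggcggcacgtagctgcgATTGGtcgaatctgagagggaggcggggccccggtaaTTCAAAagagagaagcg
Cdc20: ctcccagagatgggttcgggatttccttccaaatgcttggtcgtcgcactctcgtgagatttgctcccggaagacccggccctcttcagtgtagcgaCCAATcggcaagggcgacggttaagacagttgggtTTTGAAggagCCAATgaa
Cenpm: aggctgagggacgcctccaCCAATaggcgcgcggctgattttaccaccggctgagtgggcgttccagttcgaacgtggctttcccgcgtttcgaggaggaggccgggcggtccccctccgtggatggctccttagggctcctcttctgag
Ccnb2 shows CCAAT at 87, 54 and 21 bases before the start, and its TTTGAA matches, at 167 bases before and 4 bases past the start, lie outside the stretch printed. Kif22 and Cdc20 carry TTTGAA (in Kif22 on the opposite strand) at 17 and 18 bases before the start, with CCAAT at 54 and 53 bases, and Cdc20 has another CCAAT at 8 bases. Cenpm shows CCAAT at 131 bases and no TTTGAA.

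The transcript of the targeted gene was depleted in the arrays labelled lox/lox. Rad21 stood at 6.08, 6.06 and 6.14 log2 intensity in lox/lox replicates 1, 2 and 3, against 10.05, 9.99 and 10.01 in wt/wt replicates 1, 2 and 3. It fell 15.2-fold (adjusted p = 1.57e-09 in limma, with Benjamini-Hochberg adjustment over all genes). Markers of ES cells were all above 4.90, the median of all values (12 of 12), and their summed linear intensity ran from 14664 to 16057 in lox/lox arrays and from 18025 to 18992 in wt/wt arrays, with 5 members lower and 1 higher by the test. Of 15 measured fibroblast markers, 8 lay above that median and 0 passed (2 at an unadjusted p under 0.05), with sums of 536 to 612 in lox/lox and 512 to 601 in wt/wt arrays. Among 10 endoderm and trophectoderm markers 6 lay above it and 1 was lower, with sums of 310.3 to 397 in lox/lox and 337 to 373 in wt/wt arrays. By the same test 6.16% of all genes passed, and 10% of those above that median, while 18% of all genes had an unadjusted p under 0.05. The part of these markers in the values below was not tested. Array medians lay between 4.85 and 4.94.

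Beside this decrease, the mitotic genes differed little between the genotypes. None of the 57 passed an adjusted p of 0.05 in limma, where 6.16% of all genes did (3.61% lower and 2.55% higher in lox/lox cells), and 10% of the 11400 genes whose mean lay above the median of all values, as that of each of the 57 genes did. At an unadjusted p under 0.05 there were 7 lower and 2 higher members, 15.8% of the 57, against 18% of all genes (10.1% lower and 7.82% higher). Of the 11400 genes above the median, 1723 were lower and 1254 higher at that threshold, a larger share than among all genes or the members. Fitted log2 changes (lox/lox minus wt/wt) ran from -0.30 for Ccnb2 to 0.18 for Cdc20. Their size was at most 0.1 in 25 genes, between 0.1 and 0.2 in 27 and above 0.2 in 5. A fitted change of at least 1.5-fold, seen in 2.31% of all genes, was found in 0 of 57. The 95% intervals bound what these arrays leave possible. No interval reached a 1.5-fold change in either direction, whereas those of 7% of all genes and 10.7% of the genes above the median did. The widest bounds were 1.43-fold lower, for Cenpb, and 1.33-fold higher, for Zwilch. Each interval covers its own gene only, and RMA values near the array median, such as those of Cenpl and Cenpk, understate a change.

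**Figure D1:**
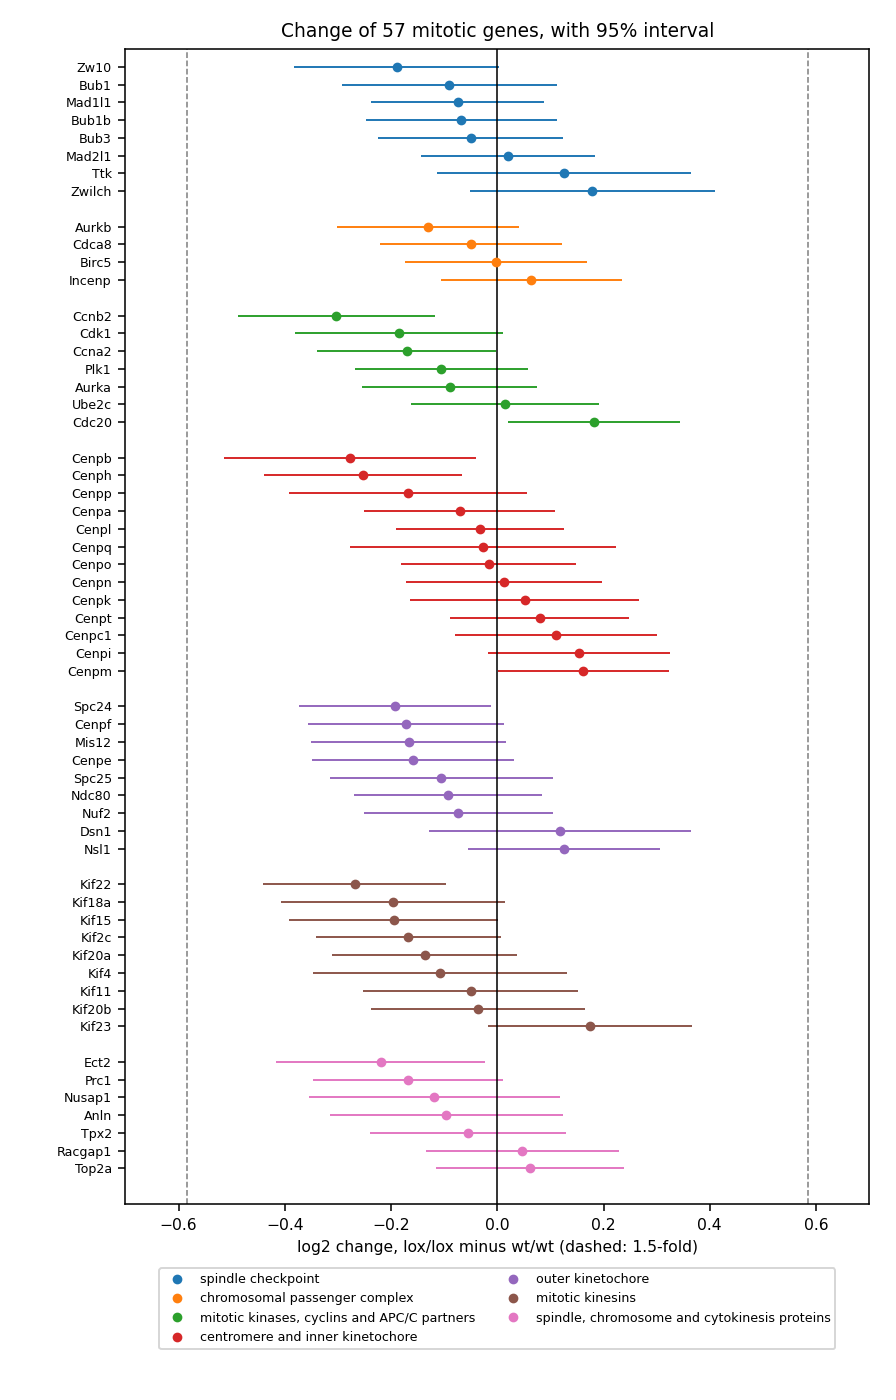
Log2 change (lox/lox minus wt/wt, horizontal axis) of the 57 genes, grouped by role, with points for the fitted change and lines for its 95% interval (3 arrays per genotype). All intervals lie inside the dashed lines at 1.5-fold, and 48 of 57 cross 0.

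The small differences leaned to 1 side. The fitted change was below 0 in 40 of 57 genes (70.2%), against 52.5% of all genes and 53.5% of those above the median. The median log2 change was -0.07, beside -0.008 over all genes. All 3 lox/lox arrays lay below all 3 wt/wt arrays in 13 members (22.8%), against 12.7% of all genes and 17.8% of the brighter ones. They lay above in 5 members (8.77%), against 10.1% and 13.4%. The members are no independent samples, and their lean was not tested as a group. Single cultures moved the whole list by as much. The median deviation of the 57 genes from their own means was -0.045, -0.074 and 0.032 in lox/lox replicates 1, 2 and 3, against 0.0072, 0.080 and 0.026 in wt/wt replicates 1, 2 and 3. The genotypes thus overlapped, since lox/lox replicate 3 stood above wt/wt replicates 1 and 3.

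**Figure D2:**
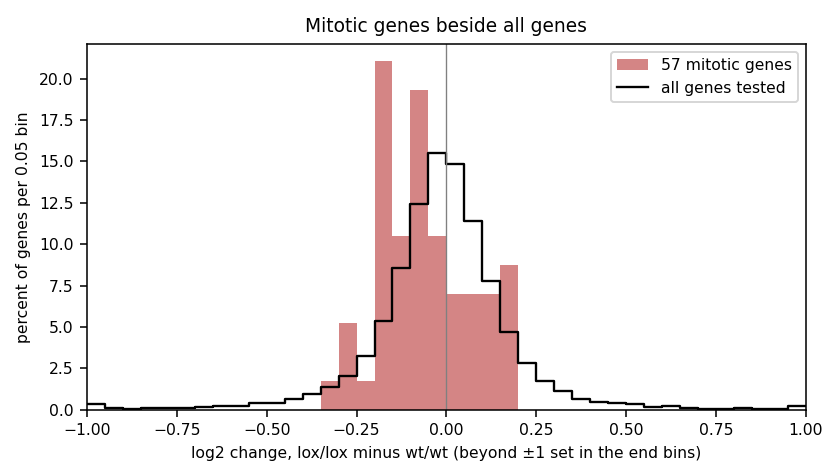
Share of genes (vertical axis, percent per bin of 0.05) by log2 change, lox/lox minus wt/wt, for the 57 mitotic genes (bars) and all 19938 genes (line). The bars stay between -0.35 and 0.20 and lean to the left of 0, with a median of -0.07, while the line has tails on both sides.

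Cyclins, kinases and the partners of the APC/C held the lowest and the highest fitted change of the list. Ccnb2, a B-type cyclin that activates Cdk1, stood at 9.56, 9.43 and 9.66 in lox/lox cells, against 9.89, 9.82 and 9.85 in wt/wt cells. The genotypes did not overlap, and lox/lox replicate 2 was the lowest. The log2 change was -0.30 (SE 0.08, 95% interval -0.49 to -0.12), and the adjusted p of 0.0647 missed the threshold. Over 15 alternative settings that p ran from 0.0112 to 0.241 and fell under 0.05 in 4, among them the fit without lox/lox replicate 3 (0.0469). Cdc20, the APC/C activator that the checkpoint restrains, stood at 9.49, 9.39 and 9.45 in lox/lox cells, against 9.27, 9.28 and 9.23 in wt/wt cells. Every lox/lox array was above every wt/wt array, with a log2 change of 0.18 (SE 0.07, adjusted p = 0.214). Ccna2, cyclin A2, had values of 9.99, 10.08 and 10.06 in lox/lox against 10.16, 10.28 and 10.20 in wt/wt cells, which do not overlap (adjusted p = 0.272). Cdk1, the kinase that both cyclins serve, overlapped at 9.34, 9.21 and 9.31 in lox/lox against 9.33, 9.60 and 9.49 in wt/wt cells (adjusted p = 0.312). Plk1 and Aurka, kinases of mitotic entry and of the centrosome, had log2 changes of -0.11 and -0.09 without overlap between genotypes, and Ube2c, an E2 enzyme of the APC/C, one of 0.01. For Aurka the nearest arrays, lox/lox replicate 1 and wt/wt replicate 3, both round to 9.88. Of the 7 genes of this role, 5 were separated between the genotypes, 4 lower (12.7% of all genes) and 1 higher (10.1% of all genes).

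**Figure D3:**
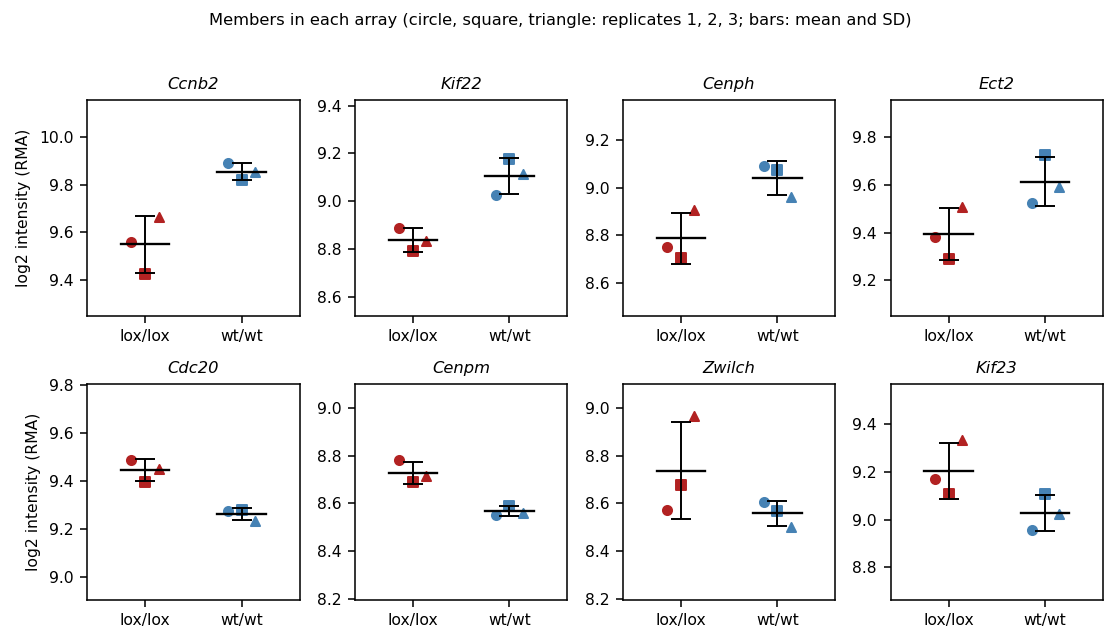
Log2 intensity (vertical axis, RMA, each panel spanning 0.9) of 8 members in each array, lox/lox left and wt/wt right, with symbols for replicates and bars for mean and SD (n = 3 each). Ccnb2, Kif22, Cenph and Ect2 are lower and Cdc20, Cenpm and Kif23 higher in every lox/lox array, by 0.16 to 0.30 on average, while Zwilch overlaps. The nearest arrays of Kif23 are almost equal.

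Spindle checkpoint genes overlapped between the genotypes in all 8 cases, where 22.8% of all genes were separated, and 5 had a fitted change below 0 and 3 above. Zw10 and Zwilch are subunits of the same complex, which brings dynein and Mad1 to kinetochores, and their estimates pointed in opposite directions. Zw10 stood at 7.53, 7.44 and 7.59 in lox/lox against 7.59, 7.82 and 7.72 in wt/wt cells (log2 change -0.19, adjusted p = 0.289). Zwilch stood at 8.57, 8.68 and 8.96 in lox/lox against 8.60, 8.57 and 8.50 in wt/wt cells (log2 change 0.18, adjusted p = 0.435). The wide spread of Zwilch among lox/lox arrays came with its high value in replicate 3. The genes of the inhibitory complex itself lay close to 0. Bub1b, Bub3 and Mad2l1, which bind Cdc20, had log2 changes of -0.07, -0.05 and 0.02, and Mad1l1, which recruits Mad2, one of -0.07. The kinases Bub1 and Ttk, which act at the head of the checkpoint, had -0.09 and 0.13. All 8 intervals lay within 1.33-fold.

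Genes of the chromosomal passenger complex, which corrects faulty attachments, had fitted changes from -0.13 to 0.06. This was the narrowest range among the roles, but the role has only 4 genes, the fewest of all. Aurkb, its kinase, stood at 9.06, 8.93 and 9.00 in lox/lox against 9.06, 9.16 and 9.17 in wt/wt cells (adjusted p = 0.443). Incenp, its scaffold, stood at 8.42, 8.36 and 8.50 in lox/lox against 8.34, 8.41 and 8.33 in wt/wt cells (adjusted p = 0.757). Both overlapped between the genotypes. Birc5, known as survivin, and Cdca8, known as borealin, had log2 changes of -0.002 and -0.05. All 4 intervals lay within 1.23-fold.

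At the centromere, 7 of 13 genes had a fitted change below 0 and 6 above, with a median of -0.02. Cenph, of the constitutive centromere network that links centromeric chromatin to the outer kinetochore, stood at 8.75, 8.71 and 8.91 in lox/lox against 9.09, 9.07 and 8.96 in wt/wt cells. The genotypes were separated by a small gap between lox/lox replicate 3 and wt/wt replicate 3 (log2 change -0.25, SE 0.08, adjusted p = 0.126). Cenpb, which binds a repeated DNA motif of centromeres, stood at 7.26, 7.21 and 6.95 in lox/lox against 7.42, 7.27 and 7.56 in wt/wt cells. It was separated too, by 0.01 between the nearest arrays after rounding, with an adjusted p of 0.192. Cenpm, another network subunit, stood at 8.78, 8.69 and 8.71 in lox/lox against 8.55, 8.59 and 8.56 in wt/wt cells (log2 change 0.16, adjusted p = 0.277). Cenpi of the same network was likewise higher in every lox/lox array (log2 change 0.15, adjusted p = 0.341). Among 10 network subunits on the list, not counting Cenpc1, 5 estimates lay below 0 and 5 above. Cenpu, Cenps, Cenpx and Cenpw, network subunits that are no members, had log2 changes of -0.22, -0.003, 0.14 and 0.50. Of these only Cenpw passed (adjusted p = 0.0106 in limma). Cenpk, Cenpl, Cenpn, Cenpo, Cenpp, Cenpq and Cenpt overlapped between the genotypes, with log2 changes from -0.17 to 0.08. So did Cenpa, the histone H3 variant that marks centromeres (-0.07), and Cenpc1, which binds it (0.11).

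The outer kinetochore, which holds microtubules, had 7 of 9 estimates below 0. Spc24 of the Ndc80 complex stood at 9.32, 9.20 and 9.39 in lox/lox against 9.50, 9.44 and 9.56 in wt/wt cells. The arrays did not overlap, with a log2 change of -0.19 and an adjusted p of 0.24. All 4 genes of that complex had estimates below 0, with Spc25, Ndc80 and Nuf2 at -0.11, -0.09 and -0.07 and overlapping arrays. Cenpf, a large protein of the corona, stood at 7.63, 7.60 and 7.79 in lox/lox against 7.77, 7.86 and 7.91 in wt/wt cells, with overlap (adjusted p = 0.323). Cenpe, a kinesin of the corona, had a log2 change of -0.16. Estimates for the Mis12 complex, the base on which Ndc80 sits, pointed in both directions, and none passed the threshold. Mis12 was lower in every lox/lox array (log2 change -0.17, adjusted p = 0.336), Nsl1 higher in every one (0.13, adjusted p = 0.493), and Dsn1 overlapped at 0.12. Pmf1, a subunit of this complex that is no member, overlapped at -0.06.

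Mitotic kinesins had estimates below 0 in 8 of 9 genes, with a median of -0.14. Kif22, a chromokinesin that pushes chromosome arms toward the spindle equator, stood at 8.89, 8.79 and 8.83 in lox/lox against 9.03, 9.18 and 9.11 in wt/wt cells. The arrays did not overlap, and the log2 change was -0.27 (SE 0.08, 95% interval -0.44 to -0.10) with an adjusted p of 0.0778. That p ran from 0.0217 to 0.25 over 15 alternatives and was under 0.05 in 3. Kif15, which helps to keep the spindle bipolar, stood at 8.50, 8.47 and 8.73 in lox/lox against 8.71, 8.81 and 8.76 in wt/wt cells (adjusted p = 0.286), with overlap through lox/lox replicate 3. Kif18a and Kif2c, which shorten microtubules, had log2 changes of -0.20 and -0.17, and Kif20a, a motor of cytokinesis, one of -0.14. Kif4, Kif11 and Kif20b had -0.11, -0.05 and -0.04. The exception was Kif23, the motor of the centralspindlin complex, at 0.17 (adjusted p = 0.333). Kif23 was higher in every lox/lox array, but the nearest arrays, replicate 2 of each genotype, both round to 9.11. Its partner Racgap1 had 0.05 with overlap.

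Spindle, chromosome and cytokinesis proteins had 5 of 7 estimates below 0. Ect2, which activates RhoA at the cleavage site, stood at 9.38, 9.29 and 9.51 in lox/lox against 9.52, 9.73 and 9.59 in wt/wt cells. The gap between lox/lox replicate 3 and wt/wt replicate 1 was small (log2 change -0.22, SE 0.09, adjusted p = 0.217). Prc1, which bundles microtubules of the central spindle, stood at 8.47, 8.48 and 8.64 in lox/lox against 8.64, 8.71 and 8.75 in wt/wt cells (adjusted p = 0.316), where the nearest arrays round to the same value. Nusap1, Anln (anillin) and Tpx2, the activator of Aurka, overlapped with log2 changes of -0.12, -0.10 and -0.05. Top2a, the topoisomerase that untangles sister chromatids, had 0.06.

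Within a genotype the members also moved with the culture. Lox/lox replicate 3 was the highest of its 3 arrays in 39 of 57 members (68.4%), against 40.3% of all genes, and lox/lox replicate 2 the lowest in 35 (61.4%), against 34.7%. Among wt/wt arrays, replicate 2 was the highest in 35 members (61.4%), against 32.7% of all genes. The order of the lox/lox arrays differed by role. Replicate 3 was the highest in 8 of 9 outer kinetochore genes, 7 of 7 spindle and cytokinesis genes and 7 of 9 kinesins, but in 1 of 7 kinases, cyclins and APC/C partners. Without lox/lox replicate 3, separation downward was seen in 29 of 57 members and 20.7% of all genes, and 1 member, Ccnb2, passed. Without both that array and wt/wt replicate 2, named below as the arrays that stood apart, it was 31 of 57 and 27.4%, and none passed. Each was the highest of its genotype in most members, while lox/lox replicate 2, the lowest in most, was kept. Fewer arrays separate more easily, as the shares of all genes show. Lox/lox replicate 3 was also the highest lox/lox array in 39 members, so leaving it out favours downward separation in them by construction. Without lox/lox replicate 2 instead, 37 of 57 estimates lay below 0, against 40 in the main fit. The adjusted p of Ccnb2, Kif22 and Cenph in limma was then 0.241, 0.25 and 0.373. The cause of the difference between cultures was not tested.

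**Figure D4:**
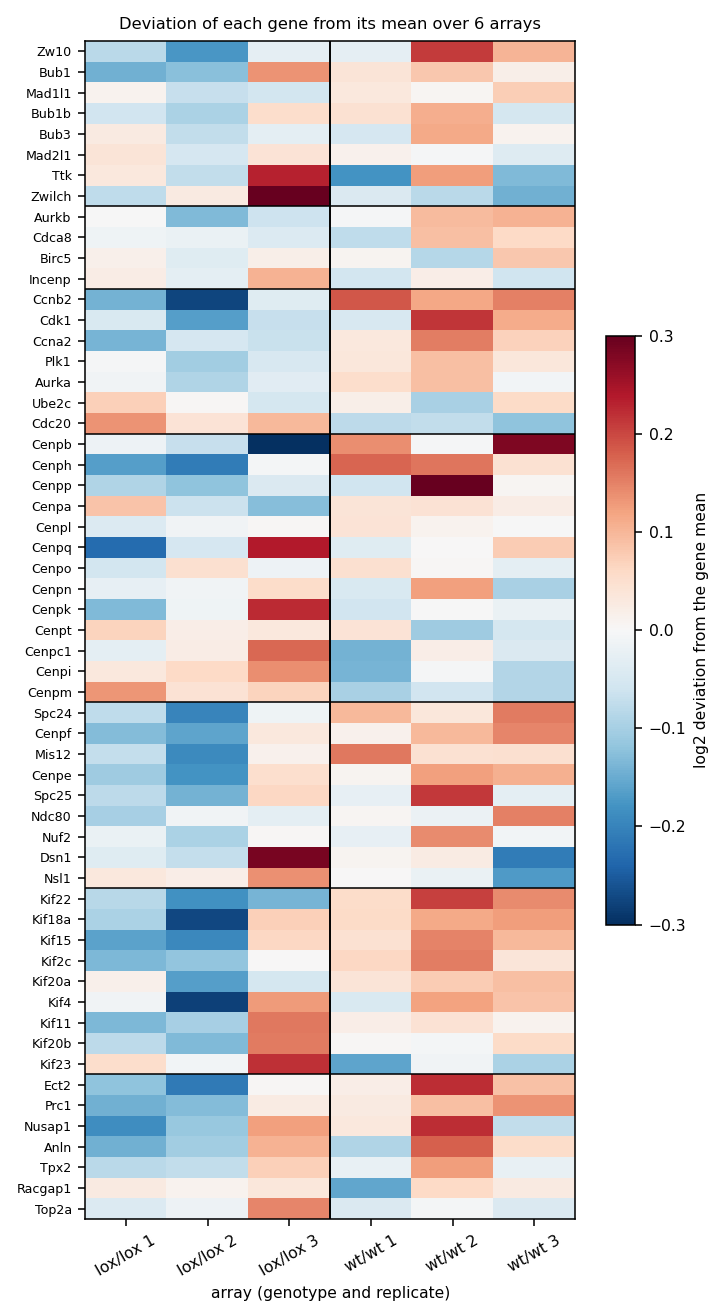
Deviation of each of the 57 genes from its mean over the 6 arrays (colour, log2), with arrays in columns (lox/lox left, wt/wt right) and genes in rows grouped by role as in the plot of changes. Lox/lox replicate 2 is mostly blue (the lowest of its genotype in 35 genes), lox/lox replicate 3 is often red, and wt/wt replicate 2 is mostly red.

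The median log2 change was -0.08 over the 26 members with TTTGAA near the start (19 below 0, 7 above) and -0.07 over the 23 with an entry and without it (16 below 0, 7 above). With TTTGAA anywhere in the 300 bases it was -0.09 over 29 members (22 below 0, 7 above), and -0.05 over the 20 without (13 below 0, 7 above). By either split the range was -0.30 to 0.18 with the motif and -0.28 to 0.16 without, and the difference was not tested. Ccnb2, Kif22 and Cdc20, shown above, all carry it, and the estimates of Ccnb2 and Kif22 lay below 0 and that of Cdc20 above.

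Of 90 other genes of the pathway, 2 were higher and 2 lower (4.44%, against 6.16% of all genes), and 18 (20%, against 18% of all genes) had an unadjusted p under 0.05. The mean of 89 of the 90 lay above the median of all values. Of the 11400 genes above it, 10% were called, and 1723 were lower and 1254 higher at an unadjusted p under 0.05. Both shares are larger than those of the 90 genes. Cenpw, a histone-fold subunit of the inner kinetochore, stood at 5.82, 5.97 and 5.99 in lox/lox against 5.33, 5.59 and 5.35 in wt/wt cells. It rose 1.42-fold (log2 change 0.50, SE 0.09, adjusted p = 0.0106) but missed the threshold without lox/lox replicate 2 (0.0588) or wt/wt replicate 3 (0.0563). Ska1, of the complex that tracks microtubule ends at kinetochores, stood at 6.99, 6.91 and 7.01 in lox/lox against 6.76, 6.51 and 6.52 in wt/wt cells. It rose 1.30-fold (adjusted p = 0.0321), and passed in 1 of the 6 fits with an array left out (largest adjusted p 0.137, when wt/wt replicate 3 was left out). Nek6, a kinase of spindle assembly, stood at 6.33, 6.39 and 6.57 in lox/lox against 6.80, 7.01 and 6.90 in wt/wt cells. It fell 1.39-fold (adjusted p = 0.0132) and passed in 3 of those 6 fits (largest adjusted p 0.0684, when lox/lox replicate 2 was left out). Mybl2, which encodes B-Myb, an activator of G2 and M phase genes, stood at 10.30, 10.26 and 10.44 in lox/lox against 10.63, 10.71 and 10.65 in wt/wt cells. It fell 1.26-fold (adjusted p = 0.0364), passed in 1 of those 6 fits (largest adjusted p 0.154, when lox/lox replicate 2 was left out), and missed the threshold with the replicate number as a block (0.074). These 4 genes kept their direction in all 15 alternatives, some of which, such as the replicate block, cannot alter a fitted change. By list, 3 of the 4 called genes stood among 40 other kinetochore and spindle genes, and Mybl2 among 16 transcription factors of such genes (median log2 changes -0.005 and -0.06). None of 17 APC/C genes passed (3 at an unadjusted p under 0.05), where Anapc10 had the smallest p at 5.14, 4.97 and 4.79 in lox/lox against 5.32, 5.40 and 5.19 in wt/wt cells (adjusted p = 0.0926). None of 17 Cdk1 regulators passed (0 at an unadjusted p under 0.05), where Cdc25b had the smallest (adjusted p = 0.298).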

How the data were processed

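The authors deposited log2 values of 35556 probe sets for each of 6 arrays (Affymetrix Mouse Gene 1.0 ST), which, per the submitters' processing notes, come from RMA in affy. No source used here gives a version or option. RMA takes the overall distribution to be alike between arrays, so an overall change of RNA per cell cannot be seen. The platform annotation gave 21789 probe sets 1 symbol, 1621 several and 12146 none. Each gene was represented by its probe set of highest mean, which left 19938 genes. All 57 members matched the RefSeq gene table of GRCm38.p6 by Entrez ID with the same symbol. The comparison of lox/lox with wt/wt used lmFit and eBayes of limma 3.58.1 (R 4.3.3, 6.14 prior and 4 residual degrees of freedom), with Benjamini-Hochberg adjustment over all genes and a threshold of 0.05. Behind each p-value lies the spread between replicates within a genotype, pooled over both genotypes and drawn by eBayes toward that of all genes. With 6.14 prior against 4 residual degrees of freedom, a gene's own spread weighs less than the value shared by all genes. The number of arrays limits the precision. The fit was tested on simulated data. Groups and replicate numbers came from the sample titles.

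Members, lists and alternatives were chosen with earlier results of these data known. All members could be named. Values in every array were given for called genes and the 2 members of smallest p per role, and in other lists called genes or the 1 gene of smallest p were named. Values of Cenpm, Ccna2 and Cdk1 were added after they were seen. Promoter motifs were searched in Python 3.11.15 after the main results were seen. Of the pathway lists, genes without a probe set of their own, such as Ccnb1 and Hjurp, were not analysed here. Alternatives were quantile normalization, median centring, cyclic loess, removal of dim genes, averaged probe sets, trend and robust options of eBayes, array weights, a replicate block, each array left out, both arrays that stood apart left out, and an adjusted p of 0.01.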

Additional observations from a re-analysis of the deposited data

How the results depend on the processing

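Called members were 0 higher under every alternative run, and 0 lower except 2 with dim genes removed (fewer genes tested, 12.5% of them called), 3 with trend and robust eBayes (7.64% of all genes), 2 with array weights (8.61%), and 0 to 1 with each array left out (3.14% to 5.68%). These lower members were Ccnb2 and Kif22, with Cenph under trend and robust. The median log2 change of the members stayed between -0.11 and -0.04. The members' direction was opposite in 22 of 855 pairs of a member and an alternative, in 10 members whose main log2 change was at most 0.11 in size. Removal of dim genes, the trend and robust options and the replicate block leave every fitted change as it was, so their pairs cannot differ in direction. Averaged probe sets can alter only Top2a among the members. Separated members were 14 to 29 lower and 5 to 10 higher with each array left out (15.9% to 20.7% and 13.3% to 17.2% of all genes), 31 lower and 10 higher without both arrays that stood apart (27.4% and 19.9%), and 2 higher with median centring (8.05%). Genes of the pathway lists called were 7 with trend and robust, 2 without both arrays that stood apart, 0 at an adjusted p of 0.01 and 0 to 3 with each array left out. All genes called were 626 to 1132 with each array left out, 697 without both arrays that stood apart and 553 at an adjusted p of 0.01. The causes of these differences were not tested, and some of the settings also used fewer genes or samples. Rad21 fell in each alternative. Deviations of same-numbered arrays correlated at 0.10, -0.23 and -0.10 for numbers 1, 2 and 3, and 1 of 6 arrays correlated best with its own number. With 3 arrays per genotype, these values cannot show whether same-numbered samples were handled together. With the replicate block 1086 of all genes, 0 members and 3 pathway genes were called.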

Other observations

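The 57 genes lie on 18 chromosomes. Chromosome 15, which carries Rad21, holds 2 of them, Cenpm (log2 change 0.16, lox/lox minus wt/wt) and Racgap1 (0.05). The X chromosome holds 2, Cenpi (0.15) and Kif4 (-0.11), with 1 above and 1 below 0. Of 739 genes on the X, 59 passed (7.98%, against 6.16% of all genes). Only Top2a among the members had a second probe set of its own. Its mean was 3.29 over lox/lox arrays and 3.13 over wt/wt arrays, below the median of all values, with a log2 change of 0.17 (adjusted p = 0.638 over all probe sets with 1 symbol), against 0.06 for the brighter probe set.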
